A study of Mus musculus with 16 samples.

Results

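Cycling tumor CD8 T cells were the CD8 T cells of MC38 tumors that carried several messenger RNAs of dividing cells at the time of harvest. They were picked by measured genes in the 4 libraries of tumor cells sorted for CD8. A cell needed at least 1 unique molecular identifier (UMI, a counted RNA molecule) of *Cd8a* or *Cd8b1*, at least 1 of *Cd3e*, *Cd3d* or *Cd3g*, no more than 1 of the macrophage genes *C1qa*, *C1qb* and *C1qc*, and none of *Siglech*, a plasmacytoid dendritic cell gene. Of the 8305 cells that met these terms (CD8 gate cells), 1471 also had 3 or more UMIs summed over *Mki67*, *Top2a*, *Birc5*, *Ube2c* and *Ccna2*, and these are the cycling cells. They came out of 8984 barcodes in the 4 libraries and 37609 in all 16 libraries, and the other 6834 CD8 gate cells were the comparison.

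The series compared C57BL/6 mice with an intact autoimmune regulator gene (*Aire*+/+) with *Aire*-deficient littermates (*Aire*-/-), which lack the thymic factor that lets medullary epithelial cells show tissue antigens to developing T cells. Young adult females carried subcutaneous tumors of MC38, a colon carcinoma line, and received repeated doses of an antibody to PD-1 (anti-PD1) or an isotype control antibody, with harvest on day 19. Tumors, and likewise spleens, of several mice were pooled for each condition, so each combination of genotype, treatment, tissue and sort was 1 droplet library. With 1 library per condition no p-value was computed and no difference between conditions has a replicate check.

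An activated CD8 T cell enters the cell cycle by raising E2F targets that license and copy DNA, and then the cyclin B kinase and the spindle and kinetochore genes that divide the chromosomes. The gate genes act late in this order: Top2a untangles DNA, Mki67 coats mitotic chromosomes, Birc5 belongs to the chromosomal passenger complex, Ube2c supplies ubiquitin for the anaphase promoting complex, and Ccna2 activates CDK2 and CDK1. In tumors, dividing CD8 cells are found among effector cells and among cells on the way to exhaustion.

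Where 4 values stand together, those of *Aire*+/+ mice come first and those of *Aire*-/- mice last, with isotype before anti-PD1 in each pair. The tumor CD8-sorted libraries held 35163274, 27052444, 22414023 and 23271160 UMIs over 2688, 2222, 1860 and 2214 barcodes. *Aire* itself had 6, 3, 1 and 0 UMIs in the whole libraries. These are too few to check the genotypes. The 6 pairs of these libraries shared 2 to 8 barcode sequences each, 35 in all, of which 1 was a cycling cell in both libraries.

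There were 577, 340, 263 and 291 cycling cells among 2477, 2067, 1705 and 2056 CD8 gate cells. *Top2a*, the most abundant gate gene, reached 593, 674, 738 and 641 CPM (UMIs of a gene per 1000000 UMIs, both summed over cells) against 28.9, 26.1, 27 and 24.2 in the other CD8 cells. *Mki67* was at 199.6, 233, 245 and 197 CPM against 6.21, 5.90, 5.59 and 7.96. *Birc5* was at 227, 291, 269 and 263 CPM against 0.782, 0.955, 0.546 and 1.31. These gate values chose the cells and are a description only. The gate asked for a single UMI of the CD8 and CD3 genes, so their levels describe the cells further. *Cd8a* was at 1170.1, 1206, 1283 and 1189.7 CPM against 1464, 1549, 1670.4 and 1575 in the other CD8 cells, and *Cd3e* at 1142, 1286, 1250.5 and 1264 against 1354, 1559.8, 1547 and 1519. Both genes were abundant in the cycling cells and, as a share of UMIs, lower than in the other CD8 cells of each library.

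The cycling cells held more RNA per barcode. Their median was 19076, 19082, 19294 and 18211 UMIs, with 3887, 3990, 3932 and 3789 genes, against 9543, 9255, 9244 and 8001 UMIs and 2536, 2557, 2495 and 2335 genes in the other CD8 cells, a ratio of medians of 1.999, 2.06, 2.09 and 2.28. A gate of 3 UMIs is met more easily by a deeper cell, so shares are also given after every cell was thinned at random to 3000 UMIs before the gate was applied. The median mitochondrial share was 1.86, 1.71, 1.52 and 1.71% in the cycling cells and 2.18, 2.17, 1.79 and 2.06% in the others.

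The cycling share of the CD8 gate cells was 23.3% in *Aire*+/+ isotype tumors (95% interval 21.6 to 25.01), 16.4% with anti-PD1 (14.9 to 18.1), 15.4% in *Aire*-/- isotype tumors (13.7 to 17.2) and 14.2% in *Aire*-/- anti-PD1 tumors (12.7 to 15.7). All intervals of shares are exact Clopper-Pearson intervals and, like all intervals here, cover counting error only. The *Aire*+/+ isotype library stood above the other 3, whose intervals overlapped. Between genotypes the ratio of shares (*Aire*-/- over *Aire*+/+) was 0.662 (0.570 to 0.767) with isotype and 0.860 (0.733 to 1.01) with anti-PD1. Between treatments (anti-PD1 over isotype) it was 0.706 (0.616 to 0.809) in *Aire*+/+ and 0.918 (0.774 to 1.09) in *Aire*-/- tumors. At 3000 UMIs per cell the shares were 9.02, 8.28, 7.03 and 7.31%, with no cell too shallow to enter. All terms of the gate were applied after thinning and took in 2483, 2114, 1763 and 2119 CD8 gate cells, more than before in each library. At this depth the same ratios were 0.780 (0.621 to 0.975), 0.884 (0.707 to 1.10), 0.918 (0.749 to 1.12) and 1.04 (0.816 to 1.33). At equal depth the ratios of both contrasts that use the *Aire*+/+ isotype library were closer to 1, and of the 4 intervals that of the genotype ratio under isotype alone lay below 1.

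**Figure D1:**
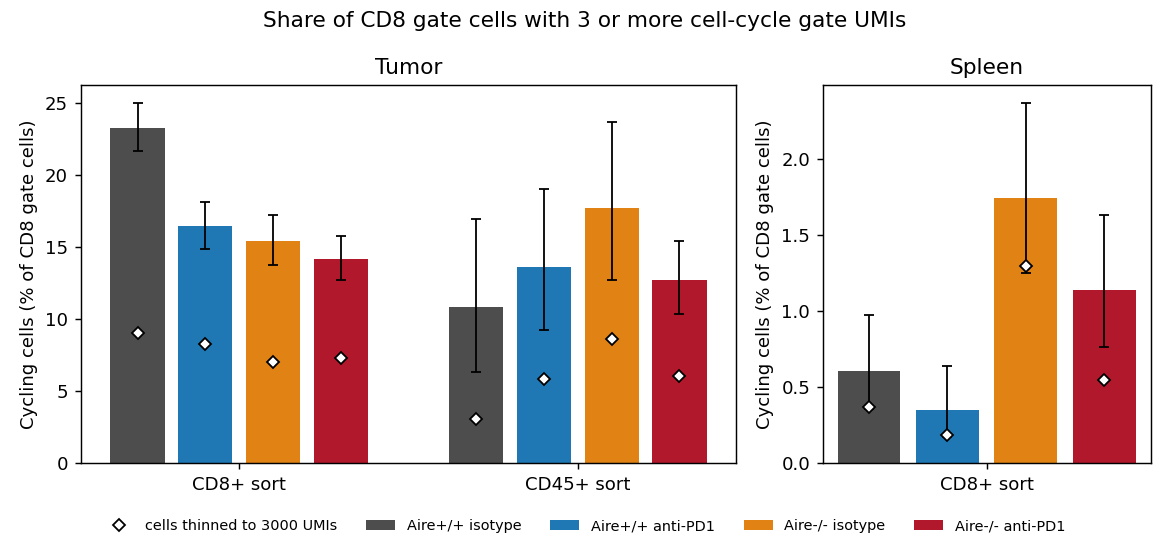
Cycling cells as a percentage of CD8 gate cells in each condition, for both tumor sorts and the spleen CD8 sort, with exact 95% intervals for counting error (bars and lines) and the share after thinning every cell to 3000 UMIs (diamonds). The bars lie between 10.8 and 23.3% in tumors and between 0.349 and 1.75% in spleens, and the diamonds between 3.03 and 9.02% and between 0.187 and 1.30%.

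The same gate in the tumor libraries sorted for all leukocytes (CD45) found 16, 28, 36 and 89 cycling cells among 148, 206, 203 and 700 CD8 gate cells, or 10.8, 13.6, 17.7 and 12.7%. Their intervals ran from 6.31, 9.23, 12.7 and 10.3% at the low end to 16.96, 19.04, 23.7 and 15.4% at the high end and overlapped, and the *Aire*+/+ isotype library was the lowest of the 4 here, not the highest. After thinning to 3000 UMIs these shares were 3.03, 5.85, 8.59 and 6.03%, from only 4, 12, 17 and 42 cycling cells. Between 4 and 12 barcodes were shared by each pair of a CD8-sorted and a CD45-sorted tumor library, 110 in all. In spleens sorted for CD8 the shares were 0.608, 0.349, 1.75 and 1.14% (17, 10, 40 and 29 cells among 2798, 2866, 2291 and 2545), at a median of 6374, 6299, 6249 and 5758 UMIs in the other cells. The cycling cells of these spleens held a median of 10, 27, 27.5 and 10 gate UMIs, against 9, 13, 12 and 13 in the CD8-sorted tumors. At 3000 UMIs per cell the spleen shares were 0.369, 0.187, 1.30 and 0.543%, with 67, 166, 109 and 138 shallower cells left out. In CD45-sorted spleens 1, 1, 1 and 0 cells met the gate, the 0 of 212 allowing a share of up to 1.42% at 3 counts, with an exact upper limit of 1.72%.

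How far the cycling cells passed the gate split them into groups of similar size. There were 726 cells with 3 to 10 gate UMIs (314, 156, 122 and 134) and 745 with 11 or more (263, 184, 141 and 157), and the second group held 91.5, 94.3, 94.4 and 92.7% of the gate UMIs of all cycling cells. In 252 cells, 18.02, 15, 16.7 and 18.2% of the cycling cells, every gate UMI was of *Top2a*. *Top2a* made up 57.5, 54.2, 62.1 and 56.5% of gate UMIs in the cells with 3 to 10 and 37.5, 36.3, 37.7 and 36.5% in those with 11 or more, and 69.7, 69.8, 71.7 and 63.4% in the other CD8 cells. The *Top2a* share of the cells with 3 to 10 gate UMIs lay between those of the other 2 groups in each library.

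Cells with 3 to 10 gate UMIs were 12.7, 7.55, 7.16 and 6.52% of CD8 gate cells, with a ratio of *Aire*-/- over *Aire*+/+ of 0.564 (0.454 to 0.698) under isotype, and of anti-PD1 over isotype of 0.595 (0.488 to 0.724) in *Aire*+/+ tumors. Cells with 11 or more were 10.6, 8.90, 8.27 and 7.64%, with ratios of 0.779 (0.630 to 0.959) and 0.838 (0.691 to 1.02). Both ratios with the *Aire*+/+ isotype library were further from 1 among the weakly positive cells. The boundary at 11 UMIs was chosen after the values were seen, and the difference between the groups was not tested.

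Genes outside the gate followed the number of gate UMIs in different ways. *Stmn1*, which frees tubulin for the spindle, had a median over the 4 libraries of 23.7 CPM in the cells with no gate UMI, 72.6 in the 588 cells with 2, 123 in the 277 cells with 3 and 1290.5 in cells with 11 or more. *Mcm5*, a subunit of the replicative helicase, went from 28.4 to 66.7, 95.9 and 171 CPM across the same bins. *Rrm2*, the small subunit of ribonucleotide reductase, went from 3.82 to 6.43, 13 and 522 CPM. All 3 were thus above the 0-UMI level just outside the threshold, and for each the larger part of the difference lay inside it.

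Mitotic genes stood high at the top of this range. *Ccnb1*, the cyclin of the mitotic kinase, was at 1.14 CPM with 2 gate UMIs, 3.49 with 3, 7.51 with 6 to 10 and 100.5 with 11 or more. *Cenpf*, a kinetochore protein of late G2 and mitosis, was at 0.638, 0, 11.3 and 225 CPM in the same bins. *Tcf7*, the transcription factor of naive and stem-like T cells, went the other way, from 31.7 CPM with no gate UMI to 14.6 with 1, 3.66 with 4 to 5, its lowest, and 9.91 with 11 or more. *Gzmb*, the main granule protease, showed no such slope, at 3650.1, 4646 and 3883 CPM with 0, 3 and 11 or more.

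**Figure D2:**
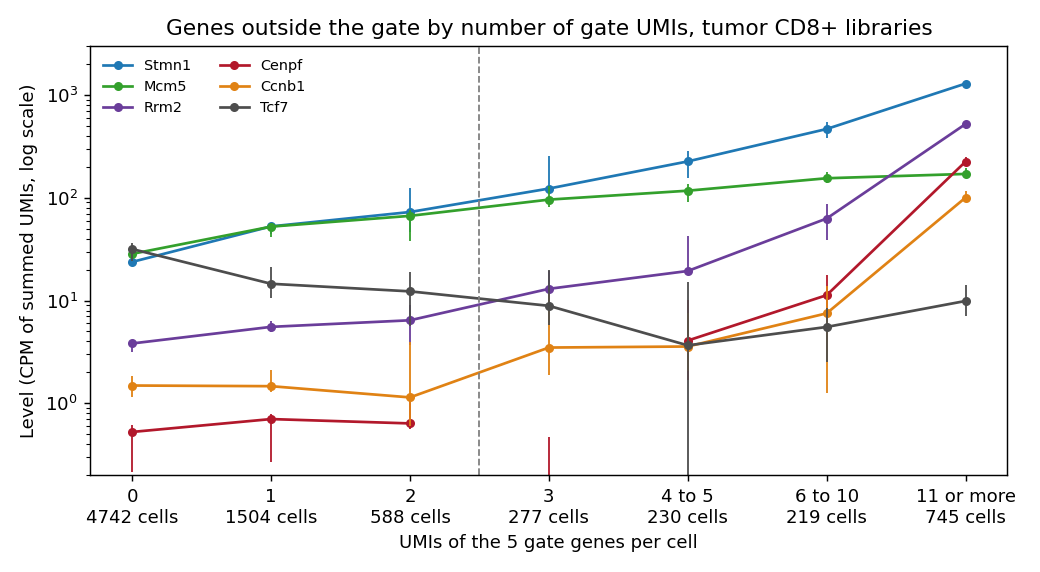
Levels of 6 genes outside the gate (CPM of summed UMIs, log scale) by the number of gate UMIs in a tumor CD8 cell; points are medians of 4 libraries, lines span the lowest to the highest library and are drawn down to 0.2 CPM, and a median of 0 is not drawn. *Mcm5* and *Stmn1* climb from the first bin, and *Cenpf* and *Ccnb1* reach 225 and 100.5 CPM only in the last, right of the dashed gate at 3 UMIs.

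Cell-cycle position was read from 40 genes of DNA replication and 68 of mitosis, none of them in the gate. Cycling cells had a median of 63, 79, 89 and 84 replication UMIs and 37, 61, 55 and 54 mitosis UMIs each. Mitosis UMIs outnumbered replication UMIs in 38.3, 46.8, 40.7 and 45.7% of them, with intervals that overlapped between all 4 libraries. In 63, 33, 26 and 21 cells the sums were within 3 UMIs of a tie. The 2 groups of cells differed here: the share was 19.4, 21.8, 19.7 and 26.1% among cells with 3 to 10 gate UMIs and 60.8, 67.9, 58.9 and 62.4% among those with 11 or more. The gate genes act late in the cycle, so the gate itself bears on these shares. The 2 sums also do not start level. The other CD8 cells held a mean of 14.2, 13.6, 14.3 and 13.5 replication UMIs each and of 6.95, 7.28, 6.56 and 6.47 mitosis UMIs. At 3000 UMIs per cell, with the gate applied anew, 70.1, 70.3, 65.3 and 63.2% of the cells that met it had more mitosis UMIs.

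In summed UMIs the replication genes were at 4058, 4549, 4737 and 4789 CPM in cycling cells and 1323, 1317, 1408 and 1484 in the other CD8 cells, and the mitosis genes at 4687, 5795, 5698 and 5396 and 646, 706, 645 and 710.4. All 238 cell-cycle genes together took 2.41, 2.92, 2.89 and 2.90% of the cycling cells' UMIs and 0.593, 0.604, 0.608 and 0.637% of the others'. The *Aire*+/+ isotype library, which had the largest cycling share, had the lowest cell-cycle content in its cycling cells. It also had the smallest share of cycling cells with 11 or more gate UMIs, at 45.6, 54.1, 53.6 and 53.95%.

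Over all genes, 10940 had at least 10 UMIs over cycling and other CD8 cells in every library, and a gene counted as past 2-fold when its log2 ratio of CPM, cycling over other, was beyond 1 in the same direction in all 4. Cycling cells were past 2-fold higher in all 4 libraries for 524 genes (4.79% of those tested) and past 2-fold lower for 76 (0.695%). Since the gate chose cells by this contrast, both counts describe the cells and support nothing. The cell-cycle lists and the gate held 201 of the 524, and 323 lay outside them. The median gene had a log2 ratio between 0.02 and 0.05 in each library. Of the 76 lower genes, 69 also had fewer UMIs per cell in all 4 libraries. For genes lower by less than 2-fold, lower refers to CPM, and their UMIs per cell are not given. The number of lower genes was 36 with every cell thinned to 3000 UMIs and 39 without the 5% of cells with most UMIs.

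Among genes with at least 50 CPM in the cycling cells of every library, those with the largest mean log2 ratios were led, outside the gate, by *Cenpf*, at 120.1, 138, 161 and 128 CPM against 0.587, 0.618, 0.341 and 0.622, a mean log2 ratio of 8.01. *Plk1*, the polo kinase that drives mitotic entry, was at 56.1, 57.1, 66.4 and 54.4 CPM against 0.782, 0.393, 0.341 and 0.746 (6.78). *Ccnb2*, a second mitotic cyclin, was at 164, 221, 181 and 195 CPM against 1.76, 2.53, 1.64 and 2.49 (6.52). None of these 3 passed 3 CPM in the other CD8 cells of any library. The others in this group were *Cdca3* (6.51), *Nusap1* (6.31), *Rrm2* (6.15), 2810417H13Rik (6.13), *Kif11* (6.06), *Cep55* (5.85), *Cdca8* (5.65), *Spc25* (5.64) and *Cenpe* (5.63), with the gate genes *Ccna2* (8.80), *Birc5* (8.26) and *Ube2c* (6.42) among them. *Kif11* is the motor that pushes spindle poles apart, *Cenpe* carries chromosomes to the plate, *Spc25* is part of the Ndc80 complex and *Cep55* acts at abscission.

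By role, every gene of 4 lists was past 2-fold higher in all 4 libraries. These were the 19 mitotic cyclins and kinases (median log2 ratio 5.23), 42 spindle, kinetochore and cytokinesis genes (4.45), 20 histone chaperones and chromatin genes (1.98) and 16 genes of DNA repair and checkpoints (2.73). The anaphase promoting complex and its substrates had 10 of 12 (4.82). The exceptions were *Pttg1*, encoding securin, at −0.15, and *Fzr1*, which targets the complex in G1, at 1.10 but under 1 in 1 library. *Pttg1* was at 105, 133, 117 and 125 CPM in cycling cells and 115, 142, 128 and 148 in the others. *Cdk1* was at 134, 164, 167 and 142 CPM against 5.13, 3.71, 3.89 and 4.41 and *Stmn1* at 739, 932, 874 and 953 against 37.6, 34.7, 32.8 and 43.6. Chromatin genes were abundant on both sides: *Hmgb2* was at 1177, 1560.5, 1478 and 1534 CPM against 221, 274, 239.8 and 299.9, and the histone variant *H2afz* at 1458, 1736, 1635 and 1681 against 413, 412, 435 and 452.

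Replication genes differed by less than mitotic genes. Of 30 licensing and fork genes 26 were past 2-fold higher in all 4 libraries, with a median log2 ratio of 2.01. *Mcm5* was at 137, 145, 159.8 and 169 CPM against 39.3, 34.1, 39.5 and 37.6, and *Pcna*, the sliding clamp, at 196, 219.6, 234 and 239 against 74.2, 78.6, 75.4 and 80.4. *Cdc6*, which loads the helicase, had a wider gap, 26.8, 30.5, 34.8 and 38.02 against 1.61, 0.730, 1.43 and 1.18 CPM. The other CD8 cells thus held more *Mcm5* and *Pcna* than *Cdc6* UMIs.

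Nucleotide supply genes were higher with 1 exception in 10 (median log2 ratio 2.55). Thymidylate synthase, *Tyms*, was at 161, 184, 191 and 193 CPM against 20.7, 18.3, 19.4 and 19.03, and thymidine kinase, *Tk1*, at 141, 180.1, 149.9 and 143 against 9.63, 8.48, 6.21 and 9.76. *Samhd1*, the enzyme that breaks nucleotides down, went the opposite way, 81.2, 111, 119.8 and 153 against 158, 189.6, 248 and 316 CPM. It was lower in the cycling cells of every library, and lowest in *Aire*+/+ isotype tumors on both sides.

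Replication-dependent histones were detected although most of their RNA lacks the poly(A) tail that this kit captures. Of 67 in the list 53 had enough UMIs, 46 were past 2-fold higher in all 4 libraries and all 53 were higher (median log2 ratio 3.27). The linker histone *Hist1h1b* was at 218, 276, 249 and 306 CPM against 7.09, 7.53, 5.73 and 6.78. Many of these genes are near-identical copies, and the counting could split reads between them, so single members are uncertain.

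G1 genes were mixed. In the list of 17 G1 and S cyclins and E2F genes 8 were past 2-fold higher (median log2 ratio 0.999). *E2f8*, a repressor that E2F itself induces in S phase, was at 12.95, 18.1, 17.3 and 21.1 CPM against 0.0978, 0.225, 0.205 and 0.249, and *Ccne2*, a cyclin of S phase entry, at 21.7, 22.8, 26.3 and 30.4 against 2.59, 1.85, 2.39 and 3.67. The D cyclins that carry mitogen signals did not follow: *Ccnd2* was at 186, 127, 170.3 and 148 CPM against 287, 262, 314 and 307, and *Ccnd3* at 292, 249, 284 and 276 against 278, 256, 289 and 266. *Ccnd2* was thus lower in the cycling cells of each library and *Ccnd3* close to equal.

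Inhibitors of the cycle also split. Of 15 CDK inhibitors and quiescence genes 2 were past 2-fold higher and 1 lower (median log2 ratio −0.57). *Cdkn2c*, encoding p18, was at 47.3, 58.8, 57.2 and 58.4 CPM against 14.4, 17.4, 13.1 and 18.3, and *Cdkn1a*, encoding p21, at 192, 175, 191 and 178 against 102, 86.4, 103 and 98.1, a log2 ratio of 0.86 to 1.02. *Cdkn1b*, encoding p27, was at 59.5, 55.1, 55.7 and 45.7 against 77.7, 77.1, 79.03 and 84.6, and *Btg1*, an antiproliferative gene of resting lymphocytes, at 1180, 1350.3, 1130.5 and 1161 against 2124, 2659, 2391 and 2853. The first 2 were thus higher and the last 2 lower in the cycling cells of all 4 libraries. The lower gene past 2-fold was *Klf2*, which keeps T cells quiescent and recirculating, at 193, 179, 124 and 124 CPM against 515, 502, 390.1 and 350.4. *Cdkn2a* was the second higher one, at 23.2, 19.1, 9.56 and 13.1 against 8.31, 6.40, 3.68 and 6.03, and was lower in both *Aire*-/- libraries than in either *Aire*+/+ library.

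**Figure D3:**
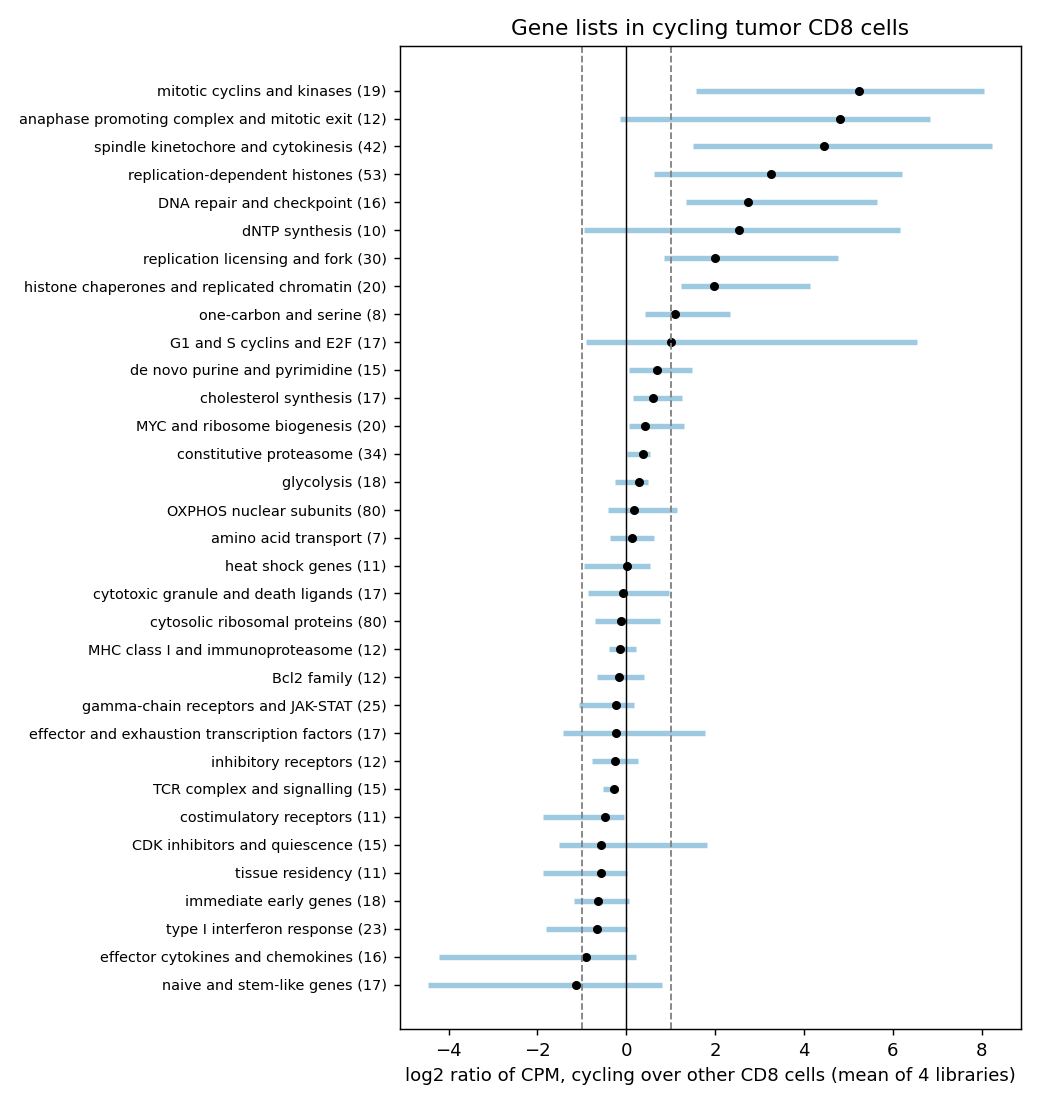
Log2 ratio of CPM in cycling over other tumor CD8 cells for each gene list (mean of 4 libraries per gene); dots are list medians, bars run from the lowest to the highest gene, the number of genes with enough UMIs is in brackets, and dashed lines mark 2-fold. Medians of the cell-cycle lists lie above 1 except those of G1 and S cyclins (0.999) and CDK inhibitors, and naive genes have the lowest median, −1.12.

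The promoters of the higher genes were searched for letters known from cell-cycle promoters, because these genes were higher together. RefSeq promoters on GRCm38.p6, from 250 bases before to 50 after the start, were found for 8789 of the 10940 tested genes, 429 of the 524 higher genes and 27025 genes in all. Both strands were read, and a gene counted if any of its promoters held the letters. The NF-Y letters CCAAT, which read ATTGG on the other strand, were in 63.6% of higher genes, 43.5% of tested genes and 41.1% of all genes. The cell-cycle homology letters were TTTGAA, which the other strand gives as TTCAAA. A variant of them, TTCGAA, reads alike on both strands, and either form was in 39.4%, 16.7% and 21.7%. The E2F letters TTTGGCGC and TTTCCCGC, read on both strands, were in 13.3%, 3.82% and 1.80%. CCAAT together with the homology letters stood in 29.6% of the higher genes against 7.28% of the tested genes. Counted by promoter, CCAAT was in 37.4% of all 32851, TTTGAA in 17.9%, TTCGAA in 1.56%, TTTGGCGC in 0.514% and TTTCCCGC in 1.07%.

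By role, the homology letters were in 27 of 36 spindle genes (75%) and 8 of 11 genes of the anaphase promoting complex (72.7%), but in 1 of 9 nucleotide genes (11.1%). CCAAT was in 16 of 18 chromatin genes (88.9%) and 52 of 61 histones (85.2%). E2F letters were in 4 of 18 chromatin genes (22.2%) and 1 of 61 histones (1.64%). The same check was void for the lower genes, licensing genes, G1 cyclins, mitotic kinases and repair genes, because only 77.6, 76.7, 76.5, 78.9 and 62.5% of them had a promoter in the table, under the minimum of 80% set for a share. A match describes letters and is neither a binding site nor a cause.

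The 120 bases before the start are shown for 6 late genes with 2 or more matches to these letters in that stretch, written 5′ to 3′ along the gene with the CCAAT and homology letters of either strand in capitals. They are *Ube2c* (chr2:164769809-164769928, plus strand), *Kif11* (chr19:37376262-37376381, plus), *Ccnb2* (chr9:70421555-70421674, minus), *Cdca8* (chr4:124936918-124937037, minus), *Cdca3* (chr6:124830056-124830175, plus) and *Spc25* (chr2:69206214-69206333, minus), picked after their sequences were seen. In *Ccnb2* the first letters of 3 CCAAT matches lay 87, 54 and 21 bases before the start, 33 bases apart each time. In *Cdca8* 3 ATTGG matches were 34 and 40 bases apart, in *Spc25* 2 CCAAT matches were 32 apart, and in *Cdca3* 1 ATTGG and 1 CCAAT were 33 apart. *Ube2c* had 2 ATTGG matches 31 bases apart and then TTCAAA 28 bases on, and *Kif11* had ATTGG and TTCAAA 26 bases apart. Of the other stretches read, those of *Cenpe*, *Cenpf*, *Plk1* and *Rrm2* had 1 match and those of *Birc5* and *Nusap1* 0. *Cep55* had 1 or 0, depending on the start.
Ube2c: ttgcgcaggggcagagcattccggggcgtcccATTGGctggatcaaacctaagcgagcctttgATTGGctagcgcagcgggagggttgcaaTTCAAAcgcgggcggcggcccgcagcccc
Kif11: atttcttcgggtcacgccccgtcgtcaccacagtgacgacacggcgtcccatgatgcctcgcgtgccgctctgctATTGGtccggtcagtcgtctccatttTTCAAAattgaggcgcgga
Ccnb2: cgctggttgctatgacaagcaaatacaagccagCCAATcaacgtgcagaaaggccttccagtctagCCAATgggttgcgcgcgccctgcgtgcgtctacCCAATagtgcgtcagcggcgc
Cdca8: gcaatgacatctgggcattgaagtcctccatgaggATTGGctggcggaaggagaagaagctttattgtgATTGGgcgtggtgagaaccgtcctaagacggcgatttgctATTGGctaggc
Cdca3: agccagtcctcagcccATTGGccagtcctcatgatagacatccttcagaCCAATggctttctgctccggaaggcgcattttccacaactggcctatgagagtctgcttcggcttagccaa
Spc25: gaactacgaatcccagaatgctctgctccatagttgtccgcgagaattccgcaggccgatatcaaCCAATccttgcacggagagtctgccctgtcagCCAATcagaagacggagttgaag

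Among T cell genes, chemokines were lower in the cycling cells. *Ccl5*, which draws T cells and dendritic cells, was at 442, 741, 453 and 1035 CPM against 2062, 2765, 2506 and 4861, a mean log2 ratio of −2.21 (−2.47 to −1.90). *Ccl4* was at 727, 927, 629 and 1282 against 2099.7, 1955, 1907 and 2074, and *Ccl1* at 223, 170.4, 207 and 159 against 514, 422, 510.5 and 329. Of 16 cytokine and chemokine genes 3 were past 2-fold lower in all 4 libraries (*Ccl5*, *Ccl1* and *Cd40lg*), none was higher, and the median log2 ratio was −0.90. *Ifng* was at 513, 432, 615 and 658 CPM against 856, 553, 735 and 659, so it was lower in 3 libraries and level in *Aire*-/- anti-PD1 tumors. *Areg*, the EGF receptor ligand amphiregulin, had no common direction (−0.95 to 0.45).

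Naive and homing genes were lower. Of 17, 7 were past 2-fold lower in all 4 libraries and 15 were lower in all 4 (median log2 ratio −1.12). *S1pr1*, the receptor that lets T cells leave tissue, was at 4.03, 2.67, 8.12 and 5.28 CPM against 34.9, 28.5, 34.1 and 50.2. *Tcf7*, a transcription factor of naive and stem-like T cells, was at 10.9, 7.03, 12.6 and 5.64 against 29.4, 18.8, 25.5 and 25.8. Levels this low rest on 19 to 47 UMIs of *S1pr1* and 31 to 127 of *Tcf7* in the cycling cells of a library. Among the 7, *Il6ra*, *Igfbp4* and *Cxcr5* had between 0 and 12 UMIs in the cycling cells of a library, and their ratios are not given. *Slamf6*, a receptor of stem-like cells, was at 6.52, 3.37, 6.67 and 4.18 against 16.2, 14.8, 16.4 and 16.1. *Il7r*, which keeps resting T cells alive, stayed within 2-fold at 175, 192, 206 and 145 against 256, 330.0, 296 and 268.

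Residency and trafficking genes were lower too, 10 of 11 in all 4 libraries and 2 past 2-fold (median log2 ratio −0.58). *Itgae*, the CD103 chain that binds E-cadherin, was at 5.49, 8.58, 21.6 and 29.1 CPM against 24.9, 38.9, 52.98 and 106, and *Cxcr3*, the receptor of CXCL9 and CXCL10, at 14.9, 18, 16.8 and 21.6 against 44.6, 48.2, 53.2 and 78.6. Both were higher in *Aire*-/- than in *Aire*+/+ anti-PD1 tumors on either side of the gate. *Cxcr6* was at 648, 582, 539 and 648 against 872, 842, 901 and 983, within 2-fold.

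Granule genes did not separate the cells as a group: none of 17 was past 2-fold in all 4 libraries (median log2 ratio −0.07). *Gzmb* was at 3304, 3984, 3895 and 4780.2 CPM against 3654, 3498, 4331 and 4191, and *Prf1*, the pore protein, at 542, 465, 527 and 595 against 631, 493, 605 and 625. *Gzmc*, a granzyme of strongly stimulated cells, was at 3780.5, 3803, 3359.7 and 2804 against 2211, 1587, 2145 and 1248, and *Gzma* at 309, 339.8, 712 and 743 against 447, 639.7, 1137 and 1396. Thus *Gzmb* was near equal, *Gzmc* was higher, *Gzma* lower and *Prf1* slightly lower in the cycling cells of every library. *Gzmd* was at 748, 467, 483 and 582 against 349, 222, 450.0 and 314, but its mean log2 ratio of 0.79 became 0.04 without the 5% of cells with most UMIs.

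Of 12 inhibitory receptors 6 were lower in all 4 libraries and none was past 2-fold (median log2 ratio −0.24). *Pdcd1*, encoding PD-1, was at 636, 798, 694 and 703 CPM against 687, 1009.7, 841 and 812, *Lag3* at 602, 689, 735 and 679 against 841, 1034, 976 and 896, and *Havcr2*, encoding TIM-3, at 109, 144, 113 and 137 against 150.5, 169, 161 and 167. Each of these 3 was lower in all 4 libraries by less than 2-fold. Of 11 costimulatory receptors and ligands *Cd40lg* (mean log2 ratio −1.87) and *Tnfsf14* (−1.71) were past 2-fold lower, both below 25 CPM, and the median log2 ratio was −0.47. Among 17 transcription factors of effector and exhausted cells, *Batf3* was past 2-fold higher at 7.63, 7.73, 3.97 and 6.91 CPM against 2.25, 2.19, 1.98 and 1.24. The median log2 ratio of that list was −0.24, and *Tox*, the factor of exhaustion, was at 35.6, 49.9, 24.2 and 42.02 against 34.2, 44.5, 22.9 and 38.4.

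T cell receptor genes differed little: all 15, of which the CD3 and CD8 genes belong to the gate, were lower in all 4 libraries, none past 2-fold, with a median log2 ratio of −0.27. Of all tested genes 27% were lower in all 4 libraries and 34.5% higher. The 25 cytokine receptor and JAK-STAT genes had a median log2 ratio of −0.23 with none past 2-fold, and *Il2ra*, the high-affinity IL-2 receptor chain, was at 119.9, 124, 131 and 118 CPM against 122, 119, 116 and 99.9.

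Interferon-stimulated genes were lower, 21 of 23 in all 4 libraries and 3 past 2-fold (median log2 ratio −0.66). *Ifit1* was at 30.96, 56.8, 66.2 and 87.5 CPM against 103, 136, 189 and 243, *Ifit3* at 61.7, 89.97, 89.1 and 121 against 173, 216, 273 and 313, and *Isg15* at 222, 339.8, 379 and 438 against 378, 488, 622 and 679. For each of these genes, in both sets of cells, the lowest value was in *Aire*+/+ isotype and the highest in *Aire*-/- anti-PD1 tumors. The summed list did not keep this order in cycling cells, at 3266, 4032, 3943 and 3709 CPM, against 4181, 5304, 5338 and 5521 in the others. Immediate early genes were likewise lower, 16 of 18 in all 4 libraries (median log2 ratio −0.63), with 1 past 2-fold, *Zfp36*, which destabilises cytokine RNAs, at 119, 130.5, 91.1 and 167 against 264, 275, 224 and 385. *Arc*, an immediate early gene outside that list, was higher at 5.06, 7.45, 13.5 and 8.91 against 3.62, 3.65, 3.61 and 4.10. The remaining genes of the rule for large differences were *Ssh2*, a cofilin phosphatase (mean log2 ratio −1.24), and *Tgtp2*, an interferon-induced GTPase (−1.06).

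Several metabolic lists were higher in the cycling cells, by medians under 2-fold except for one-carbon and serine genes. One-carbon and serine genes had the largest median log2 ratio, 1.09, with 4 of 8 past 2-fold and all 8 higher in all 4 libraries. *Shmt1*, which makes one-carbon units for thymidylate, was at 24.7, 26.99, 22.5 and 24.01 CPM against 6.75, 3.93, 4.16 and 4.91, and *Phgdh*, the first enzyme of serine synthesis, at 135, 150.4, 145 and 160.4 against 60.4, 58.6, 52.1 and 63.7. *Mthfd2*, the mitochondrial one-carbon enzyme, was at 104, 112, 105 and 96.8 against 47.5, 47.4, 46.8 and 46.9. De novo purine and pyrimidine genes followed with 14 of 15 higher in all 4 libraries and 2 past 2-fold (median log2 ratio 0.69, *Pfas* 1.49 and *Ctps* 1.27). Cholesterol genes had a median log2 ratio of 0.60 with 15 of 17 higher in all 4 and *Idi1* (1.26) past 2-fold.

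Growth genes came next. In the list of MYC targets and ribosome biogenesis 16 of 20 were higher in all 4 libraries (median log2 ratio 0.42), and *Ran*, the nuclear transport GTPase that also guides the spindle, was past 2-fold at 749, 834, 809.8 and 819.5 CPM against 339, 312, 329 and 319. *Myc* itself was at 59.4, 42.2, 33.01 and 45.1 against 68.9, 36.96, 32.05 and 32.6, with no common direction. Constitutive proteasome subunits were higher in 32 of 34 (median log2 ratio 0.38), glycolysis genes in 13 of 18 (0.28) and nuclear respiratory chain genes in 63 of 80 (0.18), none past 2-fold. Cytosolic ribosomal protein genes were lower in 48 and higher in 23 of 80 (−0.12). Heat shock genes (0.02), amino acid transporters (0.13), the Bcl2 family (−0.17) and MHC class I with the immunoproteasome (−0.13) had median log2 ratios near 0 and no gene past 2-fold.

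The cycling share differed between subsets of the CD8 gate cells. It was 37.9, 31.8, 26.9 and 32.5% among cells with 10 or more UMIs of *Gzmc*, *Gzmd*, *Gzme* and *Gzmf*, and 12.2, 13.8, 11.6 and 14.2% after thinning. All subsets were picked anew after thinning, so they are not the same cells. This one held 720, 548, 484 and 434 cells before and 551, 441, 379 and 338 after. Among cells with a *Gzma* UMI the cycling share was 14.2, 10.2, 10.5 and 10.8%, thinned 4.60, 5.16, 5.01 and 5.19%. At equal depth the granzyme C to F cells were therefore cycling more often, and the *Gzma* cells less often, than all CD8 gate cells (9.02, 8.28, 7.03 and 7.31%) in every library, as values that were not tested.

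Cells with a *Pdcd1* UMI, the large majority, cycled at 26.7, 17.9, 17.5 and 16.2% (thinned 9.77, 8.59, 7.69 and 7.93%), and cells with a *Havcr2* UMI at 28.4, 22, 18.98 and 18.5% (8.72, 6.95, 7.97 and 7.28%). The *Havcr2* share was above that of all CD8 gate cells in each library unthinned, and in 1 of 4 at equal depth. Cells with a *Tcf7* UMI cycled at 17.7, 11.8, 13.2 and 8.93% (3.41, 1.98, 5.83 and 2.17%), and the thinned values rest on 6, 2, 6 and 3 cycling cells. Cells with both *Tcf7* and *Pdcd1* cycled at 29.4, 20, 27.6 and 14.7% (7.84, 5.13, 13.8 and 3.70%), from 42, 21, 24 and 17 cycling cells unthinned and only 4, 2, 4 and 2 thinned. Their order against the rest changed with depth and library. Cells with 5 or more UMIs of *Ifit1*, *Ifit3*, *Isg15* and *Rsad2* cycled at 22.2, 18.7, 16.2 and 13.1% (3.20, 5.29, 4.38 and 4.37%), under the level of all cells at equal depth in each library.

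How far free RNA could place a cell in these subsets was read from macrophages of the CD45-sorted tumors (10 or more *C1q* UMIs and no *Cd3* UMI, median 11565 to 14928 UMIs). Of these, 0 to 0.450% had a *Tcf7* UMI, 1.17 to 2.70% a *Pdcd1* UMI, 0.631 to 2.52% a *Gzma* UMI and 0 to 0.0901% 10 or more of *Gzmc* to *Gzmf*. Among the cycling cells 10.9, 7.06, 9.89 and 6.87% had a *Tcf7* UMI and 91.8, 97.7, 94.3 and 95.5% a *Pdcd1* UMI, above those levels. Leaving out macrophages with a *Cd3* UMI can lower such a level, and the macrophages had fewer UMIs each than the cycling cells. The CD8-sorted libraries hold a larger share of T cells, so their free RNA can differ. They had 4, 8, 10 and 6 such macrophages, none with a *Tcf7*, *Pdcd1* or *Gzma* UMI, which is too few to set a level. Of the macrophages in the CD45-sorted tumors 10.3 to 14.3% had a *Top2a* UMI and 5.95 to 10.4% 3 or more gate UMIs. Macrophages can divide, and how far these UMIs were free RNA was not tested. Macrophages express *Havcr2* and interferon genes themselves and give no background for them.

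Between conditions, the UMIs of a gene were summed over the cycling cells of each library. *Aire*-/- and *Aire*+/+ isotype tumors differed past 2-fold in 171 genes higher (1.54% of 11098) and 319 lower (2.87%), and with anti-PD1 in 227 higher (2.1%) and 215 lower (1.99%) of 10831. Anti-PD1 over isotype gave 178 higher (1.59%) and 277 lower (2.47%) of 11205 in *Aire*+/+, and 262 higher (2.45%) and 149 lower (1.39%) of 10706 in *Aire*-/- tumors. Each library serves in 2 of these 4 contrasts, so they share samples. The log2 ratio of the median gene was within 0.02 of 0 in each. With at least 50 UMIs over the pair asked of a gene, these 8 counts were between 22 and 63, so most genes past 2-fold had under 50 UMIs over the pair of libraries.

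Of the spindle list none was past 2-fold in any contrast, with median log2 ratios of 0.34, −0.10, 0.33 and −0.06 for *Aire*-/- over *Aire*+/+ (isotype, anti-PD1) and anti-PD1 over isotype (*Aire*+/+, *Aire*-/-). Both contrasts with the *Aire*+/+ isotype library had 41 and 42 of 42 genes on the higher side. Among cells with 11 or more gate UMIs, a boundary chosen after the values were seen, the medians were 0.04, −0.10, 0.09 and −0.04, with 24, 8, 29 and 14 of 42 genes above 0. Choosing cells by gate genes, which also act in mitosis, bears on these values. Licensing genes had median log2 ratios of 0.24, 0.11, 0.14 and 0.05, none past 2-fold, and 0.06, 0.08, 0.04 and 0.07 in the cells with 11 or more. Among 57 histones, whose near-identical copies make their counts uncertain, 3, 1, 4 and 7 genes were past 2-fold higher and 3, 1, 0 and 0 lower. The higher histones made up a larger share of their list than the higher genes did of all genes, except for genotype under anti-PD1. Under isotype the genotype contrast had as many lower as higher histones, and the lower ones also exceeded the 2.87% of all genes. Of 14 CDK inhibitors and quiescence genes 2 were past 2-fold lower for genotype under isotype, against 2.87% of all genes. None of them was past 2-fold in either direction in the other contrasts.

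Several genes separated the genotypes in both treatments, and did so in the other CD8 cells as well. BC002163, a pseudogene of a respiratory chain subunit, was at 11.8, 13.5, 139 and 104 CPM in cycling cells and 9.39, 10.7, 122 and 95.9 in the others. Between genotypes its log2 ratio (*Aire*-/- over *Aire*+/+) came to 3.56 (3.30 to 3.84) with isotype and 2.95 (2.63 to 3.27) with anti-PD1. *Rnaset2b* went the other way, at 113, 124, 47.4 and 17.1 against 125, 140.2, 50.7 and 31.5 CPM, and *Dynlt1b* was at 25.99, 24.5, 58.8 and 82.2 against 21.2, 19.04, 46.1 and 59.7. All 3 have near-identical copies in the mouse genome, so their counts are uncertain. *Ubxn11* was at 11.5, 14.1, 32.8 and 33.1 and *Erc1* at 6.78, 6.89, 16.2 and 14.4 CPM, in each case higher in both *Aire*-/- libraries, whereas Gm4858 was at 28.9, 8.86, 3.61 and 2.55.

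*Itgae* was higher in the cycling cells of *Aire*-/- tumors, 5.49, 8.58, 21.6 and 29.1 CPM, with log2 ratios of 1.98 (1.53 to 2.44) and 1.76 (1.33 to 2.21). The other CD8 cells differed in the same direction, 1.09 and 1.45. Of its UMIs 25% in each *Aire*-/- library lay in 3 cycling cells. *Areg* was lowest in the *Aire*+/+ isotype library, at 33.5, 113, 84.6 and 73.1 CPM, with a log2 ratio of 1.33 for genotype under isotype and 1.75 for anti-PD1 in *Aire*+/+ tumors, while 3 cells held 50.4, 30.2 and 32.0% of its UMIs in the first 3 libraries. *Arc* was at 5.06, 7.45, 13.5 and 8.91, with a log2 ratio of 1.42 for genotype under isotype in cycling cells while the other cells were level. *Ramp3*, a partner of calcitonin receptor-like receptors, was at 6.86, 9.42, 18.2 and 11.1.

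Some genes lower in the cycling cells of *Aire*-/- isotype tumors were not lower in the other CD8 cells. *Klra5*, an NK receptor gene, was at 35.7, 19.3, 9.02 and 10.9 CPM, a log2 ratio of −1.98 against 0.04 in the other CD8 cells. *Gzmg* was at 198, 44.3, 32.6 and 82.8, a log2 ratio of −2.60, while in the other cells it was 0.91. Of its UMIs in the cycling cells of *Aire*+/+ isotype tumors 49.5% came from 3 cells. *Tmem158* (log2 ratio −2.01), *Scin*, an actin-severing protein (−2.004), *Epas1*, encoding HIF-2α (−1.81), and 5430421N21Rik (−1.76) were lower in cycling and other cells alike.

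Under anti-PD1, *Cxcl10*, the interferon-induced ligand of CXCR3, was highest in *Aire*-/- tumors at 75.7, 68.6, 83.1 and 259 CPM in cycling cells and 98.6, 111, 143 and 285 in the others. It gave a log2 ratio of 1.92 for genotype and 1.64 for treatment in *Aire*-/- tumors, and 51.6% of its UMIs there came from 3 cycling cells. *Ccl3* was at 317, 388, 184 and 561, a log2 ratio for treatment of 1.61 in *Aire*-/- tumors that the other cells lacked (0.06), with 47.8% of UMIs in 3 cells. *Cd7*, an immunoglobulin-family receptor of T and NK cells, was at 15.01, 20.5, 10.3 and 72.4, with 59.3% in 3 cells. *Klra7* and *Tyrobp*, an NK receptor and a signalling adapter, gave log2 ratios of 1.85 and 1.51 with 76.9 and 73.2% of UMIs in 3 cells, against −1.05 and −0.78 in the other CD8 cells. For each of these 5 genes, between 47.8 and 76.9% of its UMIs thus lay in 3 of 291 cycling cells, taken for each gene separately.

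*Ubb*, a ubiquitin gene spread over many cells, was at 169, 234, 101 and 272 CPM in cycling and 159.9, 229.6, 85.4 and 268 in other cells, a log2 ratio for treatment of 1.43 in *Aire*-/- tumors with 3.75% of UMIs in 3 cells. *Msc*, encoding the transcription factor musculin, was at 5.23, 7.17, 4.69 and 17.3 (log2 ratio 1.88), and *Upk1a* at 6.60, 10.7, 5.05 and 14.2 (1.49). On the lower side *Ccdc184* was at 119, 65.9, 88.4 and 33.3 (log2 ratio −1.41), *Klrb1b* at 26.8, 22.1, 22.9 and 9.28 (−1.30) and *Tcf7* at 10.9, 7.03, 12.6 and 5.64 (−1.16, −1.82 to −0.53). *Tcf7* was level in the other CD8 cells (0.02). The remaining lower genes were 1700025G04Rik (−1.48), *Gng11* (−1.39), *Cd9* (−1.30) and *Dph7* (−1.14), each at 5.64 to 6.00 CPM with anti-PD1. *Rsph3b* (log2 ratio 1.27, higher) and *Sfn* (−1.34, lower) were the other named genes between genotypes under anti-PD1.

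Of the 17 naive and stem-like genes 4 were past 2-fold lower in the cycling cells with anti-PD1 in *Aire*+/+ tumors (median log2 ratio −0.57), against 2.47% of all genes. In *Aire*-/- tumors 1 of 14 was past 2-fold lower, against 1.39% of all genes, and the median log2 ratio was −0.44. In the other CD8 cells the median log2 ratios of the list were −0.13 and −0.11. With anti-PD1 in *Aire*+/+ tumors *St6gal1*, a sialyltransferase, was lower as well (log2 ratio −1.67), as were *Ice1* (−1.15), *Ccdc122* (−1.10), *Pou2f2* (−1.10) and *Kctd11* (−1.09), each below 10 CPM in both *Aire*+/+ libraries. *Tmprss6* (1.40), *Cd200r4* (1.39) and *Osgin1* (1.31) were higher. The heat shock genes *Hspa1a* (1.98, and 1.65 for genotype under isotype) and *Hspa1b* (1.47) were higher too, but are near-identical copies, and 93.2% of the *Hspa1a* UMIs and 80.3% of the *Hspa1b* UMIs of *Aire*+/+ anti-PD1 tumors lay in 3 cells, as did 76.6% of the *Hspa1a* UMIs of *Aire*-/- isotype tumors.

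The interferon list was higher in cycling cells of *Aire*-/- than *Aire*+/+ isotype tumors, with 22 of 23 genes above 0 and a median log2 ratio of 0.37 (0.48 in the other CD8 cells). With anti-PD1 the genotype median log2 ratio was 0.14, and anti-PD1 over isotype gave 0.40 in *Aire*+/+ and 0.20 in *Aire*-/- tumors. Cholesterol genes were on the lower side in 16 of 17 for *Aire*-/- over *Aire*+/+ isotype tumors (median log2 ratio −0.29, other cells −0.26). Neither list had more than 2 genes past 2-fold in a direction. Macrophage and monocyte genes were also mostly on the higher side in cycling cells of *Aire*-/- tumors. Of these, 8 of 10 were above 0 under isotype (median log2 ratio 0.72) and 8 of 8 with anti-PD1 (0.65). Past 2-fold higher were 2 of the 10 under isotype, against 1.54% of all genes, and 2 of the 8 with anti-PD1, against 2.1%. Their summed level under isotype was 131 CPM in *Aire*+/+ and 129.5 in *Aire*-/- cycling cells. Whether these differences are linked was not tested.

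**Figure D4:**
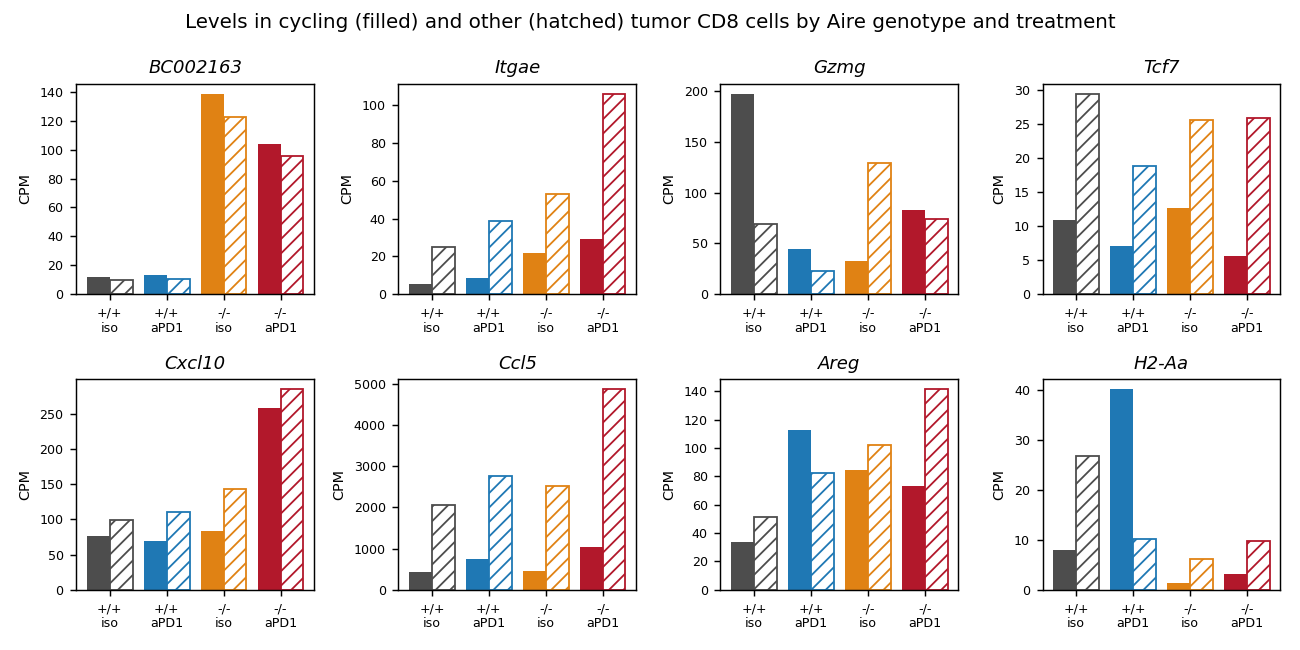
Levels of 8 genes (CPM of summed UMIs) in the 4 tumor CD8-sorted libraries, in cycling cells (filled bars) and other CD8 cells (hatched bars), by *Aire* genotype and isotype (iso) or anti-PD1 (aPD1) treatment. BC002163 and *Itgae* are higher in both *Aire*-/- libraries, *Tcf7* and *Ccl5* are lower in cycling cells of each library, and *H2-Aa* reaches 40.2 CPM in the cycling cells of *Aire*+/+ anti-PD1 tumors.

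Markers of other cells were measured in the cycling cells. Of 14 macrophage genes 12 had a UMI, led by *Ctss*, with a summed level of 131, 128, 129.5 and 149 CPM against 179, 208, 204 and 214 in the other CD8 cells, and *Adgre1* and *Chil3* at 0. Of 11 dendritic cell genes 8 had a UMI, led by *Cd74*, at 210.0, 358, 115 and 93.5 against 285, 204, 173 and 147, with *Clec9a*, *Cd209a* and *Siglech* at 0, the last by the gate. This list was highest in the cycling cells of *Aire*+/+ anti-PD1 tumors. There, 3 cells held 95.8% of the *H2-Aa* UMIs and 95.3% of those of *H2-Eb1*, class II genes whose log2 ratios for genotype under anti-PD1 were −3.70 and −4.45, and for treatment in *Aire*+/+ tumors 2.32 and 2.73. *Cd74* (−1.66) and *H2-Ab1* (−1.60) went with them. In all, 28 cycling cells and 58 other CD8 cells had 5 or more UMIs of *H2-Aa*, *H2-Ab1* and *H2-Eb1*, or 2.25, 1.76, 1.52 and 1.72% of the cycling and 0.789, 0.579, 0.693 and 1.30% of the other cells, and no step removed doublets.

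B and plasma cell genes (3 of 6 with a UMI, led by *Cd79b*, with *Ms4a1* and *Jchain* among those at 0) summed to 1.80, 3.80, 2.89 and 2.18 CPM against 3.81, 2.86, 2.39 and 4.66. NK cell genes (3 of 5, led by *Klre1*, with *Klra8* and *Klra4* at 0) summed to 116, 154, 135 and 118 against 113, 142, 126 and 108. All 5 genes of CD4 and regulatory T cells had UMIs, at 622, 659, 599 and 533 against 697, 848, 705 and 734, led by *Ctla4*, which CD8 cells also express. Tumor and stroma genes (8 of 10, led by *Cdh1*, with *Krt8* and *Col3a1* at 0) summed to 13.4, 8.58, 11.4 and 13.1 against 15.5, 17.7, 18.5 and 23.4. All 5 neutrophil genes (*S100a8*, *S100a9*, *Csf3r*, *Retnlg* and *Ngp*) were at 0 in the cycling cells, and red cell genes had 1 UMI, of *Hbb-bs*, with *Hbb-bt*, *Hba-a1* and *Hba-a2* at 0. No gene of these lists was past 2-fold in all 4 libraries between cycling and other cells. Without the cells that held UMIs of other cells there were 534 genes past 2-fold higher and 73 lower in cycling cells, and the genotype ratio of the cycling share under isotype was 0.672. Without the cells that held 5 or more class II UMIs, left out after the values were seen, these were 533, 72 and 0.665, and anti-PD1 over isotype in *Aire*+/+ tumors gave 145 genes higher in place of 178.

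The same contrast was read in cells that the description above did not use. In the CD45-sorted tumors, summed over conditions (169 cycling and 1088 other CD8 gate cells), 488 of 509 higher genes with enough UMIs had a log2 ratio of at least 1, against 7.69% of all 10763 genes, and 58 of 74 lower genes were at −1 or below, against 4.33%. In the CD8-sorted spleens (96 and 10404 cells) it was 484 of 505, against 18.6% of genes, and 39 of 71, against 8.06%, with the median gene shifted by 0.20. These cells were picked by the same gate, so the cell-cycle part was set by it.

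T cell genes were read in each library of these sorts. The log2 ratio of *Ccl5* was −1.83, −2.23, −0.82 and −1.91 in CD45-sorted tumors and 0.52, 1.23, 1.31 and 1.05 in CD8-sorted spleens. That of *Cxcr3* was −1.004, −1.90, −0.95 and −1.25 in the tumors and 1.99, 2.498, 1.27 and 0.92 in the spleens. Both were thus lower in cycling than in other CD8 cells of each CD45-sorted tumor library and higher in each spleen. The tumor ratios of *Cxcr3* rest on only 11, 10, 25 and 61 UMIs in the cycling cells. The log2 ratio of *Gzmb* was 0.59, 0.33, 0.26 and −0.14 in the tumors and 3.97, 5.05, 4.26 and 3.83 in the spleens, and that of *Gzma* −3.40, −2.92, 1.07 and −0.47 in the tumors and 3.10, 5.40, 4.14 and 4.10 in the spleens. Both granzymes were higher in the cycling cells of each spleen, and neither had a common direction in the CD45-sorted tumors. There the cycling cells held 6, 50, 911 and 1656 *Gzma* UMIs. *Klf2* was lower in each tumor library (log2 ratio −2.15, −0.69, −2.38 and −1.63) and in 3 of 4 spleens (−0.63, −1.17, 0.06 and −0.46). *Ifit1* was lower in each tumor library (−2.04, −1.40, −1.62 and −1.24), and splenic cycling cells held only 5 of its UMIs.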

How the data were processed

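Per the labels, cells were sorted for CD45 or CD8 and made into 3′ droplet libraries. The study's methods also describe a 5′ kit, for sorted CD45 or CD8 cells with T cell receptor sequencing, so the end that the CD8-sorted counts come from is not secure. The authors deposited UMI counts per gene and barcode, whole numbers with no normalisation, for 16 libraries on GRCm38. They were counted with Cell Ranger, whose version is given only for the 5′ kit. Symbols were the part of a name before the first low line, and counts of 25127 names were summed into 24496 symbols, with 27 vector names (9, 2, 3 and 3 UMIs) set to 0. Barcodes with under 200 genes or over 20% mitochondrial UMIs were removed (4, 1, 2 and 2 of the tumor CD8-sorted libraries), and no doublet step was run. UMIs of a gene were summed over the cells of a group in a library and divided by all UMIs of that group for CPM. Groups were compared as log2 ratios of CPM with conditional exact 95% intervals. A gene needed 10 UMIs over both groups. A group at 0 was set to a floor of 3 counts in that library. Shares were recomputed on cells thinned to 3000 UMIs with a fixed seed.

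Genes named are those of 41 gene lists, the 15 genes in each direction with the largest mean log2 ratio between cycling and other cells (past 2-fold in all 4 libraries, at least 50 CPM on the higher side), the 8 in each direction with the largest ratio per contrast of conditions (at least 100 UMIs), and *Aire*. On the lower side 8 genes met the second part. Some genes that these rules name are not reported here. The cells and lists were chosen with earlier results of these data known. Trac, Trbc1, Trbc2, Vsir and Zfp683 had no counts to use under these symbols. Alternatives were other gate minimums, a gate without *Mki67*, no quality filter, thinning, leaving out the deepest 5% of cells or those with other-cell UMIs, others without gate UMIs, mean CPM per cell, centring, CPM without cell-cycle genes, other UMI minimums and, chosen after seeing the data, a gate at 11 UMIs, the gate without *Top2a*, and leaving out cells with class II UMIs. The calculations were tested on simulated data. Python 3.11.15, numpy 2.4.6, scipy 1.17.1, pandas 2.3.3 and matplotlib 3.10.9 were used. Promoters came from RefSeq.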

Additional observations from a re-analysis of the deposited data

Results flagged for a closer look

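Under isotype treatment the cycling share of CD8 gate cells was lower in *Aire*-/- than in *Aire*+/+ tumors, a ratio of 0.662 (0.570 to 0.767), and higher in *Aire*-/- than in *Aire*+/+ spleens, a ratio of 2.87 (1.59 to 5.41), so the same genotype contrast ran in opposite directions in the CD8-sorted cells of tumor and spleen. In the CD45-sorted tumors the isotype ratio was 1.64 (0.887 to 3.17), in the direction of the spleen, and 2.83 (0.924 to 11.6) at 3000 UMIs per cell, where it rests on 17 and 4 cycling cells. Under anti-PD1 the ratio was 0.860 (0.733 to 1.01) in CD8-sorted tumors, 0.935 (0.606 to 1.49) in CD45-sorted tumors and 3.27 (1.55 to 7.51) in CD8-sorted spleens. At 3000 UMIs per cell these were 0.884 (0.707 to 1.10), 1.03 (0.532 to 2.15) and 2.91 (0.972 to 10.4), the last from 13 and 5 cycling cells. The isotype spleen ratio rests on 40 and 17 cycling cells, each condition was 1 library, and the difference was not tested. At 3000 UMIs per cell the isotype ratios of the CD8-sorted libraries were 0.780 (0.621 to 0.975) and 3.52 (1.66 to 8.11), the latter from 28 and 10 cycling cells.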

How the results depend on the processing

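Of 95 results under the alternatives 1064 values stayed close to the reported ones and 262 moved further, where close means within the 95% interval of a share ratio, 1.5 times a number of genes or 1 SD over the 4 libraries of a log2 ratio. Of those that moved, 233 were log2 ratios of single genes and are not listed. Thinning moved the share ratios to 0.780 (*Aire*-/- over *Aire*+/+, isotype) and 0.918 (anti-PD1 over isotype, *Aire*+/+), and turned that of anti-PD1 over isotype in *Aire*-/- tumors from 0.918 (0.774 to 1.09) to 1.04 (0.816 to 1.33). The gate at 11 UMIs, chosen after seeing the data, moved the first pair to 0.779 and 0.838. The number of genes past 2-fold lower in cycling cells was 36 with thinned cells and 39 without the deepest 5% of cells. Counts between conditions moved most with the UMI minimum. The order below is *Aire*-/- over *Aire*+/+ isotype, *Aire*-/- over *Aire*+/+ anti-PD1, and anti-PD1 over isotype in *Aire*+/+ and *Aire*-/-. A minimum of 50 UMIs gave 30, 36, 27 and 43 genes higher and 63, 43, 41 and 22 lower. The genes it left out had under 50 UMIs over the pair. A minimum of 1 UMI gave 625, 525, 411 and 585 higher, and 412, 425 and 288 lower in the last 3 contrasts. Thinning gave 320 higher and 521 lower between genotypes under isotype, 375 lower between genotypes under anti-PD1, 300 higher between treatments in *Aire*+/+, and 419 higher and 295 lower between treatments in *Aire*-/- tumors. Between treatments in *Aire*-/- tumors there were 228 lower without the deepest cells and 236 with the gate at 11 UMIs. The causes of the moves under thinning, depth and gate settings were not tested. Of 1134 mean log2 ratios of 81 named genes under 14 settings 1115 kept their sign. By this mean no gene past 2-fold in all 4 libraries changed its direction.

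The depth of 263 to 577 cycling cells per library limits genes with few UMIs, and the single library per condition limits every contrast between conditions.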
